A study of Homo sapiens with 45 samples.

Results

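The HOX genes encode homeodomain transcription factors that specify position along the body axis. In the human genome they lie in clusters A to D on chromosomes 7, 17, 12 and 2. All symbols made of HOX, a cluster letter from A to D and a number were taken from the deposited count table of 8 RNA libraries. This gave 39 genes of the 28278 names in the table, 11 in HOXA, 10 in HOXB, 9 in HOXC and 9 in HOXD. RNA came from HCT116, a long-established line of human colon cancer cells, after 72 h with 25 nM siRNA delivered by lipid transfection. The control group received the nontargeting siRNA siNTC5 (4 libraries), and the other group received siRNA against HNRNPK (4 libraries), which encodes an RNA- and single-stranded-DNA-binding protein that prefers C-rich sequence. Replicates 1 and 2 of each group were made with the TruSeq stranded mRNA kit and replicates 3 and 4 with the Stranded mRNA Ligation kit. A further pair of control libraries, named Scramble, came from a different RNA purification kit and separate count tables, and is used only where named. Chromatin was available as 7 lists of ChIP domains, 1 list for each antibody and siRNA, for H3K27me3 (2 ChIP samples for each siRNA), lamin B1 and H3K9me3 (3 samples for each siRNA) and, in control cells only, H3K9me2 (3 samples). The ChIP samples were also taken after 72 h with 25 nM siRNA, and their control is labelled siControl. The lists carry no replicates of their own.

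Within a cluster, genes are numbered by paralog group, from group 1 at the 3′ end to group 13 at the 5′ end, and genes with the same number in different clusters are paralogs. In embryos, genes at the 3′ end are known to be active earlier and closer to the head, and genes at the 5′ end later and closer to the tail. Inactive HOX genes typically carry H3K27me3, the histone mark laid down by Polycomb repressive complex 2, and Trithorax-type complexes with histone H3K4 methyltransferase activity keep active ones open. Lamin B1 is a protein of the nuclear lamina, and lamin B1 domains are stretches of chromosome in contact with it. Adult epithelia of the gut are known to keep a regional pattern of HOX expression.

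HNRNPK itself checked the labels. Its level was 884 ± 78.0 CPM (counts scaled to library size with TMM normalisation, SD, n = 4) with siNTC5 and 199 ± 45.3 with HNRNPK siRNA, which is 22.4% of control (two-sided exact permutation p = 0.0286, the lowest value that groups of 4 can give). The log2 fold change was -2.17 ± 0.06 (SE). Total counts ran from 12107280 to 23633851 in the 8 libraries. Of the 13933 genes with enough counts for the test, 71.5% passed an adjusted p of 0.05 (edgeR quasi-likelihood test, Benjamini-Hochberg over all tested genes), 35.5% higher and 36.1% lower after HNRNPK siRNA. Over all tested genes the log2 fold change had a median of -0.004. The labels do not say whether the libraries came from separate cultures, so p-values measure only the spread between these libraries, which may be technical. In bulk RNA a change in the number of cells that express a gene and a change in RNA per cell cannot be told apart. The summed level of 8 epithelial markers was 2696 to 3113 CPM with siNTC5 and 4403 to 5442 with HNRNPK siRNA, with the colon marker KRT20 at 0 in all 8 libraries. Of its 6 tested genes 4 rose, KRT8 and KRT18 carrying most of the sum, KRT19 fell from 806 ± 159 to 333 ± 57.2 CPM, and CDX2 did not pass the test. The summed level of 6 markers of other cell types was 43.8 to 72.5 and 75.1 to 122 CPM, nearly all of it COL1A1, with the smooth muscle marker MYH11 at 0 throughout. The part of these shifts in the HOX results was not tested.

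Enough counts for the test were found for 27 of the 39 HOX genes, beside 49.3% of all names. Of these, 18 changed (66.7%, against 71.5% of all tested genes), 15 of them higher and 3 lower after HNRNPK siRNA, and 14 of the 18 had groups that did not overlap. HOXA held most of the changes: all 11 of its genes were tested, 9 rose, 1 fell, and the median log2 fold change was 0.91. In HOXB 2 of 8 tested genes rose and 1 fell (median 0.02), in HOXC 3 of 7 rose and 1 fell (median 0.10), and in HOXD the 1 tested gene rose (0.67). A log2 fold change of 1 or more in size was reached by 7 HOX genes, 25.9% of those tested, beside 15.8% of all tested genes, and 6 of the 7 lie in HOXA. Over all tested genes, 55.8% both passed the threshold and had groups that did not overlap, to be set beside 14 of the 27 tested HOX genes.

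**Figure D1:**
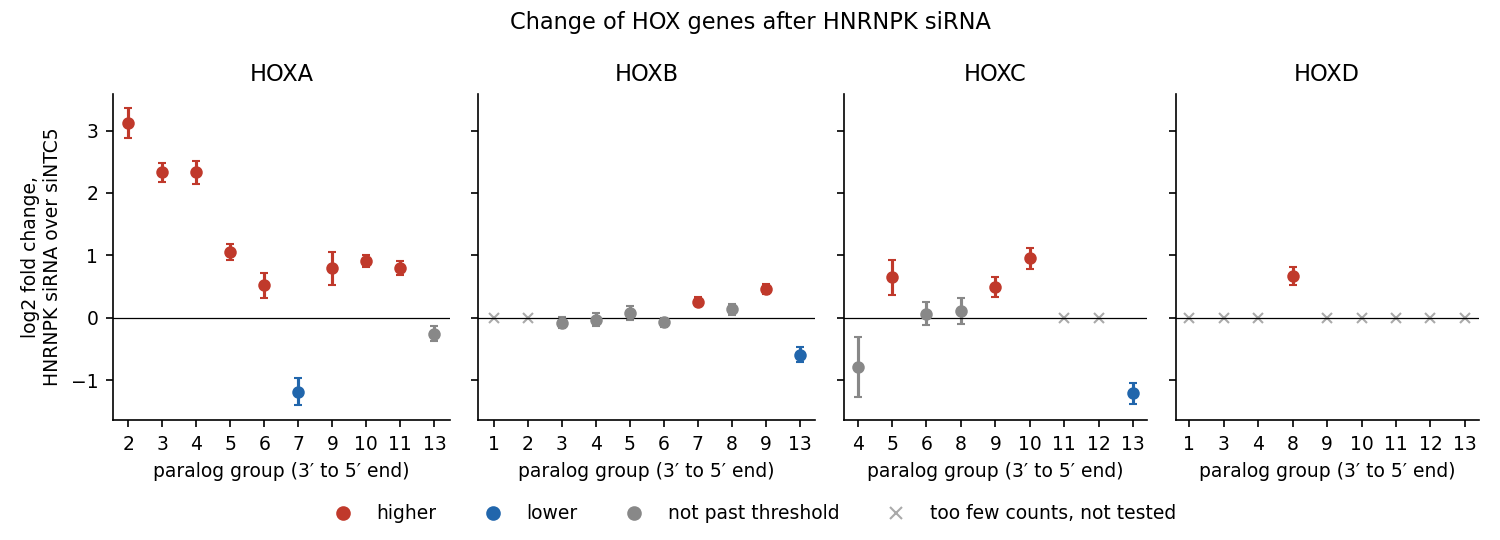
Log2 fold change of HOX genes after HNRNPK siRNA over siNTC5 (y axis) by paralog group (x axis) in the 4 clusters, with bars for the standard error from edgeR (n = 4 libraries per group); crosses mark genes with too few counts for the test. HOXA2 to HOXA5 lie highest, from 1.05 to 3.12, and the group 13 genes of HOXA, HOXB and HOXC all lie below 0.

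HOXA2, HOXA3, HOXA4 and HOXA5, toward the 3′ end of the cluster, all rose. HOXA2, which patterns the hindbrain and the second pharyngeal arch, had the largest rise of any HOX gene. HOXA2 and HOXA4 rose, HOXA7 fell and HOXA13 did not pass the test. The promoter windows of these 4 HOXA genes, on the same strand of chromosome 7 but not adjacent, follow because their responses differed. Each is the 250 bases before the gene's start, 5′ to 3′ on the minus strand, from RefSeq on GRCh38.p14, and capitals mark matches to the motifs named after the sequences.
HOXA2 (chr7:27102684-27102933): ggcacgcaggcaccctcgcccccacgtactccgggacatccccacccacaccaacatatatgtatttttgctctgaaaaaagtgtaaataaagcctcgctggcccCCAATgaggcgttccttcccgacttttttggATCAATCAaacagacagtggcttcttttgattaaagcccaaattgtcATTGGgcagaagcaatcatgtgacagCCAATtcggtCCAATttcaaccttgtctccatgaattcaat
HOXA4 (chr7:27130758-27131007): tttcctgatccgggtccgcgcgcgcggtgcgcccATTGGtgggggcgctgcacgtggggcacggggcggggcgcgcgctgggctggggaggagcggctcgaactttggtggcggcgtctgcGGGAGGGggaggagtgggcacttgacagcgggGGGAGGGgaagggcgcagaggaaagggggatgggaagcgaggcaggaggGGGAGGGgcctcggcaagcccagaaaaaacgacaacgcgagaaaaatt
HOXA7 (chr7:27156676-27156925): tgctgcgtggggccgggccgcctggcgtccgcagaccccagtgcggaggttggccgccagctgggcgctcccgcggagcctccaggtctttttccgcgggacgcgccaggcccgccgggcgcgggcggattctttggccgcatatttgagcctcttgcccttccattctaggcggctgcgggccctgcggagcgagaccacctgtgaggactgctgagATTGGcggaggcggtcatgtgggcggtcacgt
HOXA13 (chr7:27200092-27200341): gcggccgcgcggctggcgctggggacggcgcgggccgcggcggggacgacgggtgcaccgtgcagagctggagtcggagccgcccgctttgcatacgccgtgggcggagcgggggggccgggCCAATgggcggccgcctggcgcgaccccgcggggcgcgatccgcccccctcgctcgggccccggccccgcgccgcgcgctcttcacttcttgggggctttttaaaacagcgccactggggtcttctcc
The motifs searched on both strands were CCCTCCC, a C-rich run of the kind HNRNPK is known to bind, TGATNNAT, the composite site of PBX and HOX proteins, CCAAT, the CCAAT box, and TATAAA, the TATA box. None of the matches overlapped another. The window of HOXA4 held 3 matches to CCCTCCC, all on the strand opposite to the gene, starting 129, 97 and 48 bases before its start. No match to CCCTCCC was found in the windows of HOXA2, HOXA7 and HOXA13, and 24.7% of 34943 RefSeq promoter windows of the same length hold one. HOXA2 held the 1 match to TGATNNAT, 114 bases before its start, a motif present in 6.49% of all windows. CCAAT was matched 4 times in HOXA2 and once each in HOXA4, HOXA7 and HOXA13, against 32.0% of all windows with a match, and TATAAA was matched in none of the 4 (10.8% of all windows). The GC content of the window was 47.2% for HOXA2, 70% for HOXA4, 70.8% for HOXA7 and 78% for HOXA13. Promoter entries were found for 19 of the 39 genes, and a match is only a match of letters.

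HOXA2 was read at a low level in control cells. Its siNTC5 replicates 1 to 4 held 0.593, 0.960, 0.400 and 0.383 CPM, and its HNRNPK siRNA libraries 5.01, 5.57, 5.39 and 5.44. All 4 libraries of the knockdown stood well above the 4 controls, a log2 fold change of 3.12 ± 0.24 (8.68-fold, edgeR adjusted p = 1.27e-09), although the counts behind it are small, from 6 to 76 reads per library. Within kits the log2 fold change of HOXA2 was 2.72 ± 0.32 in TruSeq and 3.75 ± 0.33 in Ligation libraries, and the difference between kits had an unadjusted p of 0.0498.

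HOXA3, which is required for thymus and parathyroid development, went from 3.38, 1.80, 2.73 and 2.63 CPM to 13.4, 13.3, 11.6 and 13.5 CPM. HOXA4 went from 1.42, 1.59, 0.933 and 0.985 CPM to 6.53, 6.46, 6.15 and 6.02 CPM. Both were separated completely between the groups, and both had a log2 fold change of 2.33, with standard errors of 0.16 and 0.18 (adjusted p = 1.90e-10 and 1.42e-09). The body of HOXA3 (27107010 to 27152583) overlaps HOXA4, HOXA5, HOXA6 and the antisense genes HOXA-AS2 and HOXA-AS3. Reads from 1 of these overlapping genes may have been counted for its partner. The strand setting of the authors' counting, which bears on the antisense genes, is not given in the sources used here. HOXA5, a gene of lung and cervical patterning, stood at 3.85, 4.38, 4.60 and 5.36 CPM in siNTC5 libraries. It reached 9.82, 9.58, 8.43 and 9.72 CPM after HNRNPK siRNA. The groups were again apart, and the log2 fold change of 1.05 ± 0.13 was the smallest of HOXA2 to HOXA5 (adjusted p = 8.55e-07).

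The middle of HOXA behaved unevenly from gene to gene. HOXA6 rose from 2.79 ± 0.685 to 4.00 ± 0.749 CPM, with overlapping groups (log2 fold change 0.52 ± 0.20, edgeR adjusted p = 0.0279). It missed the threshold without siNTC5 replicate 2 (0.43) or 3 (0.41) or HNRNPK siRNA replicate 2 (0.51) or 4 (0.35). In TruSeq libraries alone it also missed (0.29, edgeR adjusted p = 0.392), and in Ligation libraries alone it passed (0.76, edgeR adjusted p = 0.00633). HOXA7 was the 1 HOXA gene that fell. It was measured at 2.02, 2.05, 3.73 and 3.50 CPM in siNTC5 libraries and at 1.12, 0.891, 1.43 and 1.40 CPM in HNRNPK siRNA libraries. The 4 knockdown libraries lay below all controls, and within each group the Ligation libraries read higher than the TruSeq libraries. The log2 fold change of HOXA7 was -1.19 ± 0.22 (adjusted p = 7.21e-05), with -1.0 in TruSeq and -1.35 in Ligation libraries. Its neighbours on either side, HOXA6 and HOXA9, both rose.

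HOXA9, HOXA10 and HOXA11, genes of the 5′ part that pattern the limb and the reproductive tract, all rose. HOXA10 was at 11, 9.15, 8.19 and 7.94 CPM with siNTC5 and at 19.1, 17.5, 15.4 and 15.7 CPM with HNRNPK siRNA. HOXA11 was at 7.94, 9.60, 8.86 and 6.24 CPM with siNTC5 and at 15.1, 15.6, 13.2 and 13 CPM with HNRNPK siRNA. For both, the lowest knockdown library exceeded the highest control. The log2 fold changes were 0.91 ± 0.10 and 0.80 ± 0.11 (adjusted p = 1.04e-07 and 4.38e-06). HOXA9 read higher in Ligation than in TruSeq libraries in both groups. Its control libraries read 1.84 and 0.585 CPM in TruSeq and 2.86 and 2.35 in Ligation, and its knockdown libraries 1.91 and 1.41 in TruSeq and 5.48 and 4.45 in Ligation. Its log2 fold change of 0.79 ± 0.26 passed the test (adjusted p = 0.0109) with overlapping groups, and was 0.93 in Ligation libraries alone (adjusted p = 0.000470) and 0.55 in TruSeq libraries alone (adjusted p = 0.362). It missed the threshold without siNTC5 replicate 4 (0.67) or HNRNPK siRNA replicate 3 (0.66). Reads of HOXA9 and HOXA10 may also be divided with the HOXA10-HOXA9 readthrough gene, which covers both.

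HOXA13 closes the cluster at its 5′ end and is known for roles in limb and hindgut. It was the 1 HOXA gene that did not pass the test. Its siNTC5 libraries held 12.2, 9.90, 9.93 and 10.1 CPM and its HNRNPK siRNA libraries 7.45, 8.39, 8.85 and 10.7 CPM. Replicate 4 of the knockdown lay within the control range and the other 3 below it. The log2 fold change was -0.26 ± 0.12 (edgeR adjusted p = 0.0705), and without HNRNPK siRNA replicate 4 it was -0.37 and passed (edgeR adjusted p = 0.0188), while without siNTC5 replicate 1, the highest control, it was -0.16 (edgeR adjusted p = 0.232). In TruSeq libraries alone the log2 fold change was -0.46 (adjusted p = 0.0391) and in Ligation libraries alone -0.04 (adjusted p = 0.817), and the interaction of treatment and kit had an unadjusted p of 0.0686.

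**Figure D2:**
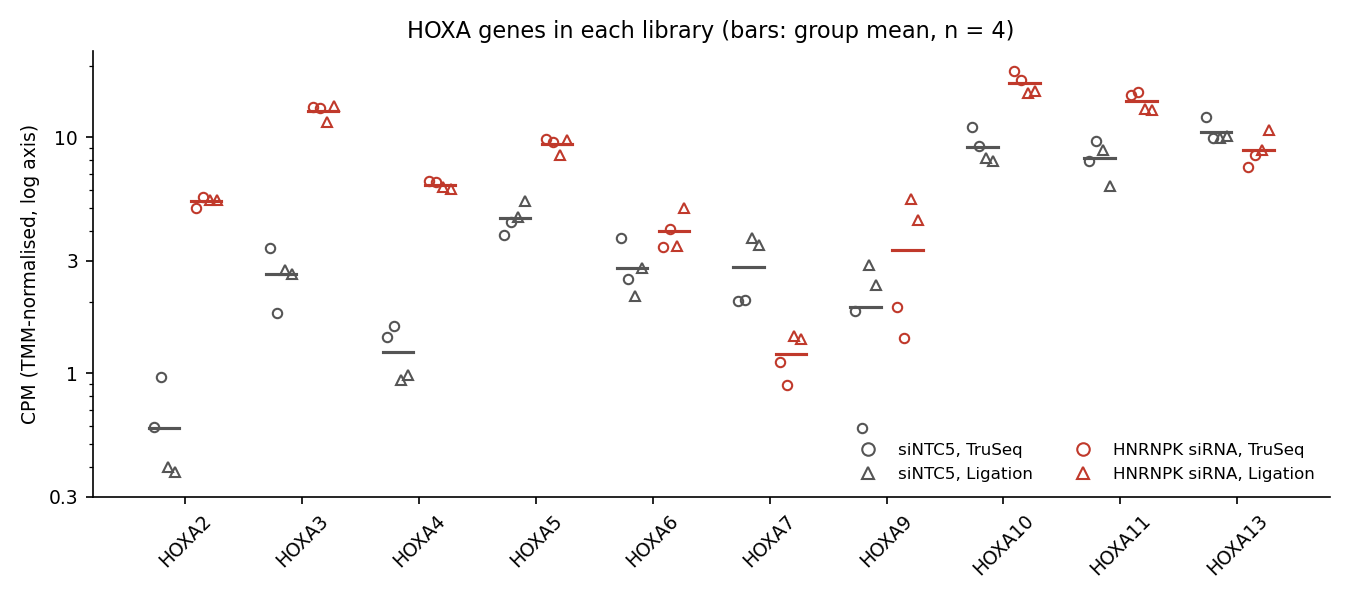
Normalised CPM (y axis, log scale) of 10 HOXA genes (x axis) in each of the 8 libraries; circles are TruSeq and triangles Ligation libraries, grey siNTC5 and red HNRNPK siRNA, and bars are group means (n = 4). Knockdown libraries lie above every control for HOXA2 to HOXA5, HOXA10 and HOXA11, below every control for HOXA7, and overlap with controls for HOXA6, HOXA9 and HOXA13.

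HOXB differed from HOXA in that 5 of its 8 tested genes, HOXB3 to HOXB6 and HOXB8, did not pass the test. Their log2 fold changes ran from -0.08 to 0.14, each with groups that overlapped. HOXB3, for example, averaged 17.9 ± 2.21 CPM with siNTC5 and 16.8 ± 1.92 with HNRNPK siRNA, and HOXB6 averaged 25.8 ± 2.07 and 24.5 ± 3.07. HOXB1 and HOXB2 had too few counts for the test. HOXB3, HOXB4 and HOXB5 did not pass the test where their HOXA paralogs rose, and the difference itself was not tested.

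HOXB7 and HOXB9, genes of the trunk region of the axis, rose slightly. HOXB7 was at 28.2, 26.9, 27.3 and 26.9 CPM in siNTC5 libraries and at 30.7, 30.9, 34.2 and 35.2 CPM in HNRNPK siRNA libraries. The groups did not overlap, but the log2 fold change was only 0.26 ± 0.07 (edgeR adjusted p = 0.00276), and TruSeq libraries alone gave 0.17 (adjusted p = 0.181). HOXB9 was at 28.6, 29.3, 41.3 and 37.1 CPM in siNTC5 libraries and at 43.9, 48.3, 43.5 and 49.5 CPM in HNRNPK siRNA libraries. The Ligation controls read higher than the TruSeq controls, and every knockdown library still exceeded them. Its log2 fold change was 0.46 ± 0.08 (adjusted p = 6.91e-05), 0.68 in TruSeq and 0.24 in Ligation libraries, with an unadjusted interaction p of 0.00510.

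HOXB13, a 5′ gene expressed in the distal gut and prostate, lies apart from the other HOXB genes at 48724763 to 48728750 on chromosome 17. It was at 12.7, 10.5, 14.1 and 13.3 CPM with siNTC5 and at 7.58, 5.94, 9.69 and 10.5 CPM with HNRNPK siRNA. Replicate 4 of the knockdown and replicate 2 of the controls met at 10.5, and the other 3 knockdown libraries were below all controls. HOXB13 fell from a mean of 12.6 ± 1.56 to 8.44 ± 2.08 CPM, a log2 fold change of -0.59 ± 0.12 (edgeR adjusted p = 0.000165).

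In HOXC 4 of 7 tested genes changed, HOXC13, HOXC10, HOXC9 and HOXC5. HOXC13, a gene of hair and nail formation, was at 4.68, 4.51, 5.13 and 6.13 CPM with siNTC5 and at 2.44, 1.63, 2.11 and 2.55 CPM with HNRNPK siRNA. Its highest knockdown library was below its lowest control, and its log2 fold change of -1.22 ± 0.17 (edgeR adjusted p = 4.91e-06) was the largest fall of any HOX gene tested. HOXC10, a lumbar patterning gene, was at 2.31, 1.88, 3.20 and 2.68 CPM with siNTC5 and at 3.63, 4.46, 5.65 and 5.60 CPM with HNRNPK siRNA. HOXC9, a thoracic patterning gene, was at 5.16, 3.63, 5.40 and 4.65 CPM with siNTC5 and at 5.41, 6.54, 8.60 and 5.77 CPM with HNRNPK siRNA. The groups of HOXC10 did not overlap, and for HOXC9 the lowest knockdown library and the highest control nearly met. The log2 fold changes were 0.95 ± 0.17 for HOXC10 (adjusted p = 5.02e-05) and 0.49 ± 0.16 for HOXC9 (adjusted p = 0.0108). HOXC9 missed the threshold without HNRNPK siRNA replicate 3 (0.35) and in TruSeq libraries alone (0.46, edgeR adjusted p = 0.116).

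The 3′ genes HOXC4, HOXC5 and HOXC6 are annotated from the same first base, 54016888, so their reads may be divided among them by the counting. HOXC5 passed the test narrowly at low counts (0.884 ± 0.238 and 1.35 ± 0.205 CPM, log2 fold change 0.65 ± 0.28, edgeR adjusted p = 0.0463), with groups that overlapped. With the replicate number as a block in place of the kit, its log2 fold change was 0.64 with an adjusted p of 0.0687, and it missed the threshold without siNTC5 replicate 2 or 4 or HNRNPK siRNA replicate 1, 2 or 4 (0.51 to 0.63). HOXC5 also missed in TruSeq libraries alone (0.80, edgeR adjusted p = 0.123) and in Ligation libraries alone (0.50, edgeR adjusted p = 0.258). The DESeq2 Wald test gave 0.65 (adjusted p = 0.128). HOXC4, HOXC6 and HOXC8 did not pass the test, at log2 fold changes of -0.79 ± 0.48, 0.07 ± 0.18 and 0.10 ± 0.21, and HOXC4 was at -1.63 and passed without HNRNPK siRNA replicate 2 and was at -0.36 (edgeR adjusted p = 0.482) without HNRNPK siRNA replicate 1. HOXC11 and HOXC12 had too few counts, and HOXC12 had none in any of the 8 libraries.

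HOXD was read at low counts except for 1 gene. HOXD8, at the middle of the cluster, was the 1 gene tested, at 3.56, 4.05, 3.66 and 5.14 CPM with siNTC5 and 5.34, 6.16, 7.76 and 7.33 CPM with HNRNPK siRNA. The groups did not overlap, and HOXD8 rose with a log2 fold change of 0.67 ± 0.15 (edgeR adjusted p = 0.000428). The other 8 HOXD genes were not tested, and neither were HOXB1, HOXB2, HOXC11 and HOXC12; these 12 genes had 0 to 24 counts in any library. HOXD13, the digit patterning gene at the 5′ end, had 0 to 3 counts per library, and a change in these genes was not detectable at this depth.

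Read by paralog group across clusters, the groups 1 to 5 held 10 tested genes, of which 6 rose and none fell, with a median log2 fold change of 0.85. The clusters differed here. None of the 3 tested HOXB genes passed the test (median -0.03), and 1 of the 2 tested HOXC genes rose (median -0.07). The other rises were all in HOXA (median 2.33). Groups 6 to 8 held 8 tested genes, of which 3 rose and 1 fell (median 0.12), and groups 9 to 12 held 6, all of which rose (median 0.80). Over all tested genes 35.5% rose and 36.1% fell. In group 13 the log2 fold change was below 0 in each of the 3 tested genes, HOXA13, HOXB13 and HOXC13, and HOXB13 and HOXC13 passed the test. Whether a paralog group differed from another was not tested. No HOX gene passed the test for a different response in the 2 kits (edgeR interaction, 18 of all tested genes or 0.129%). An unadjusted interaction p under 0.05 was seen in 4 of 27 HOX genes, beside 1639 of all 13933 tested genes. In TruSeq libraries alone 14 HOX genes passed (57.8% of all tested genes there) and in Ligation libraries alone 18 (68.1%).

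The Scramble libraries gave a further view of the control level, on a CPM scale normalised over all 10 libraries. HOXA2 was at 0.0807 and 0.131 CPM in them, from 4 and 6 reads. These values were below the siNTC5 range of 0.386 to 0.961 and far below the 5.05 to 5.64 of HNRNPK siRNA. HOXB13 was at 15.0 and 14.3 CPM and HOXC13 at 6.18 and 4.27 CPM, in each case above every HNRNPK siRNA library. HOXB9, however, was at 76.5 and 67.6 CPM, above both siNTC5 (28.6 to 41.6) and HNRNPK siRNA (43.8 to 49.5), and HOXA13 was at 4.08 and 5.16 CPM, below both (9.90 to 12.1 and 7.51 to 10.7). Of the 27 tested genes, both Scramble libraries lay below every siNTC5 library for 8 and above for 4, beside 32.9% and 36.9% of 13275 tested genes on the shared names, so a gap between both kinds of control is common over all genes. When they were added as controls, 12 HOX genes passed instead of 18, with 9 higher instead of 15, beside 51.7% of all genes tested. HOXA6, HOXA9, HOXB9, HOXC5, HOXC9 and HOXD8 then missed the threshold, for example HOXB9 with a log2 fold change of 0.04 (edgeR adjusted p = 0.930) and HOXD8 with 0.35 (adjusted p = 0.327). HOXA2 to HOXA5, HOXA7, HOXA10, HOXA11, HOXB7, HOXB13, HOXC10 and HOXC13 were among those that still passed. Total counts were 59209169 and 55007171 in the Scramble libraries, beside 14810376 to 23633851 in the siNTC5 libraries. Purification kit, count table, total counts and the name of the control siRNA differ together between Scramble and siNTC5 libraries, so their effects cannot be told apart.

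**Figure D3:**
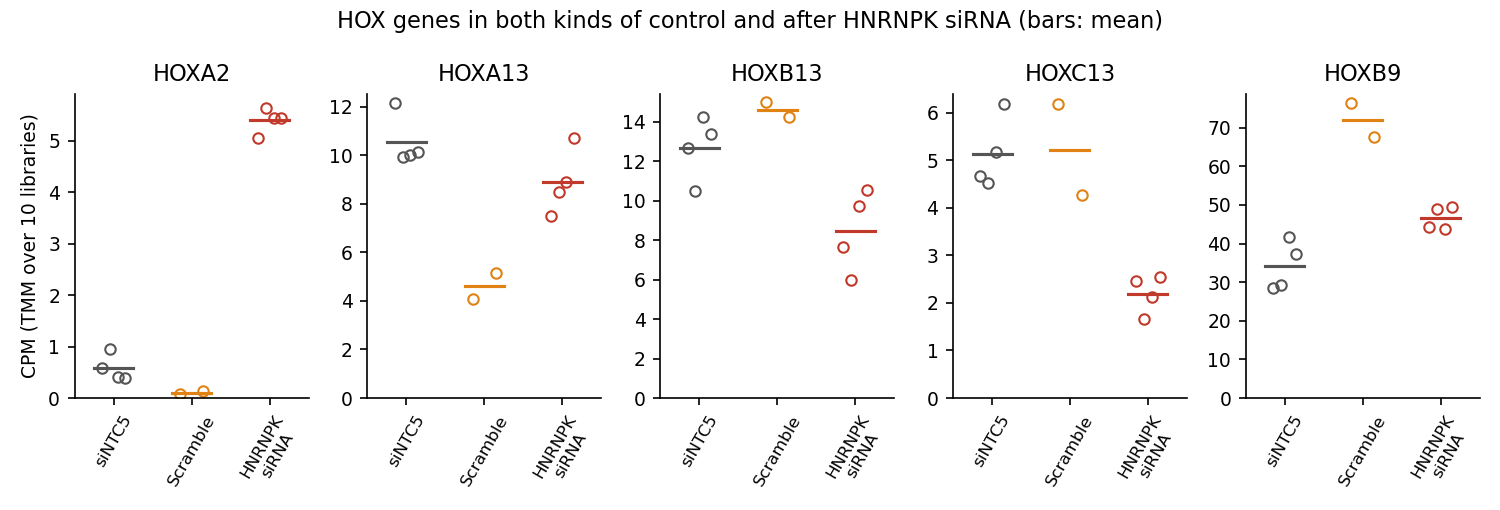
CPM normalised over 10 libraries (y axis, from 0) of 5 HOX genes in siNTC5 (n = 4), Scramble (n = 2) and HNRNPK siRNA (n = 4) libraries, with bars for the group mean. The Scramble points lie below siNTC5 for HOXA2, near siNTC5 for HOXB13 and HOXC13, below both groups for HOXA13 and above both groups for HOXB9.

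The clusters were not covered alike by called H3K27me3 domains. The lists hold called domains only, so a gene outside them may still carry the mark. A gene was counted in a domain list when at least 50% of its body lay within the list's domains. No HOX gene lay in lamin B1, H3K9me3 or H3K9me2 domains in any list, beside 13% of all 26987 genes with a position in control lamin B1 domains and 9.23% in those of HNRNPK siRNA. The shares of all genes were 9.43% in control H3K9me3 domains, 13.3% in H3K9me3 domains after HNRNPK siRNA and 9.07% in control H3K9me2 domains. H3K27me3 domains held 10 of the 39 HOX genes in control cells (beside 22.7% of all genes) and 3 after HNRNPK siRNA (beside 20.9%). The other 29 were in H3K27me3 domains in neither condition, and no HOX gene entered one. The 7 genes in the control list alone were HOXB13, HOXC5, HOXC6, HOXC8, HOXC9, HOXC10 and HOXC11, a state held by 2.13% of all genes. With 1 list per condition these differences have no replicate check.

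HOXC, from 53938831 to 54056030 on chromosome 12, lay wholly within 1 control H3K27me3 domain of 485 kb (53705001 to 54190000). After HNRNPK siRNA the list held a domain on each side instead, 53715001 to 53970000 and 54030001 to 54175000, which covered 48.8% of the cluster. The uncovered stretch took in HOXC11, HOXC10, HOXC9 and HOXC8 whole, and left 5.91% of HOXC6, 29.0% of HOXC5 and 66.5% of HOXC4 covered. HOXC12 and HOXC13 at the 5′ end were covered in both lists. HOXC9 and HOXC10, which lost the domain, rose in RNA, while HOXC13, which kept it, fell. HOXC8 lost the domain with no RNA change past the threshold. Of the genes uncovered in part, HOXC5 rose narrowly, and HOXC4 and HOXC6 did not pass the test. The flanking genes SMUG1 and CALCOCO1 also lay wholly in the control domain. Their bodies were covered at 54.5% and 65.8% after HNRNPK siRNA, and both fell in RNA. Whether RNA followed the loss of the domain was not tested. By the authors' deposited score, these domains ranked low to middling in their lists, at percentile 33.4 for the control domain and at 17.0 and 35.3 for the pair after HNRNPK siRNA.

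HOXB (48528526 to 48728750 on chromosome 17) was covered at 16.9% in control cells by a domain of 95 kb from 48695001 to 48790000, and at 0% after HNRNPK siRNA. Its deposited score was at percentile 28.3 of the control list. This domain held HOXB13. Of the other protein-coding genes listed within 500 kb, PRAC1 and PRAC2 also lay wholly in it, and had too few counts for the test, and TTLL6 lay in it for 50.5% of its body. HOXB13 thus lost its H3K27me3 domain and fell in RNA. HOXB1 to HOXB9 were outside H3K27me3 domains in both conditions. HOXA (27092993 to 27200091) and HOXD (176087487 to 176190907 on chromosome 2) were covered at 0% by every list. For HOXA the nearest control H3K27me3 domain was 443 kb away, so the rise of HOXA2 to HOXA5 took place in a cluster without a called domain in either condition.

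Distances along the chromosome to the nearest called lamin B1 domain differed between the clusters. The control list held 880 lamin B1 domains over 923 Mb, and the list after HNRNPK siRNA held 730 over 684 Mb. Whether a cluster moved relative to the lamina was not tested. HOXD lay nearest to a control lamin B1 domain, 147 kb away (175360001 to 175940000), and this domain was absent after HNRNPK siRNA, where the nearest was 8262 kb away. The distance to the nearest lamin B1 domain went from 669 to 3099 kb for HOXC, from 1288 to 4445 kb for HOXA and from 1824 to 2911 kb for HOXB. Of the 9 HOXD genes beside the absent domain, HOXD8 alone had enough counts to be tested.

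**Figure D4:**
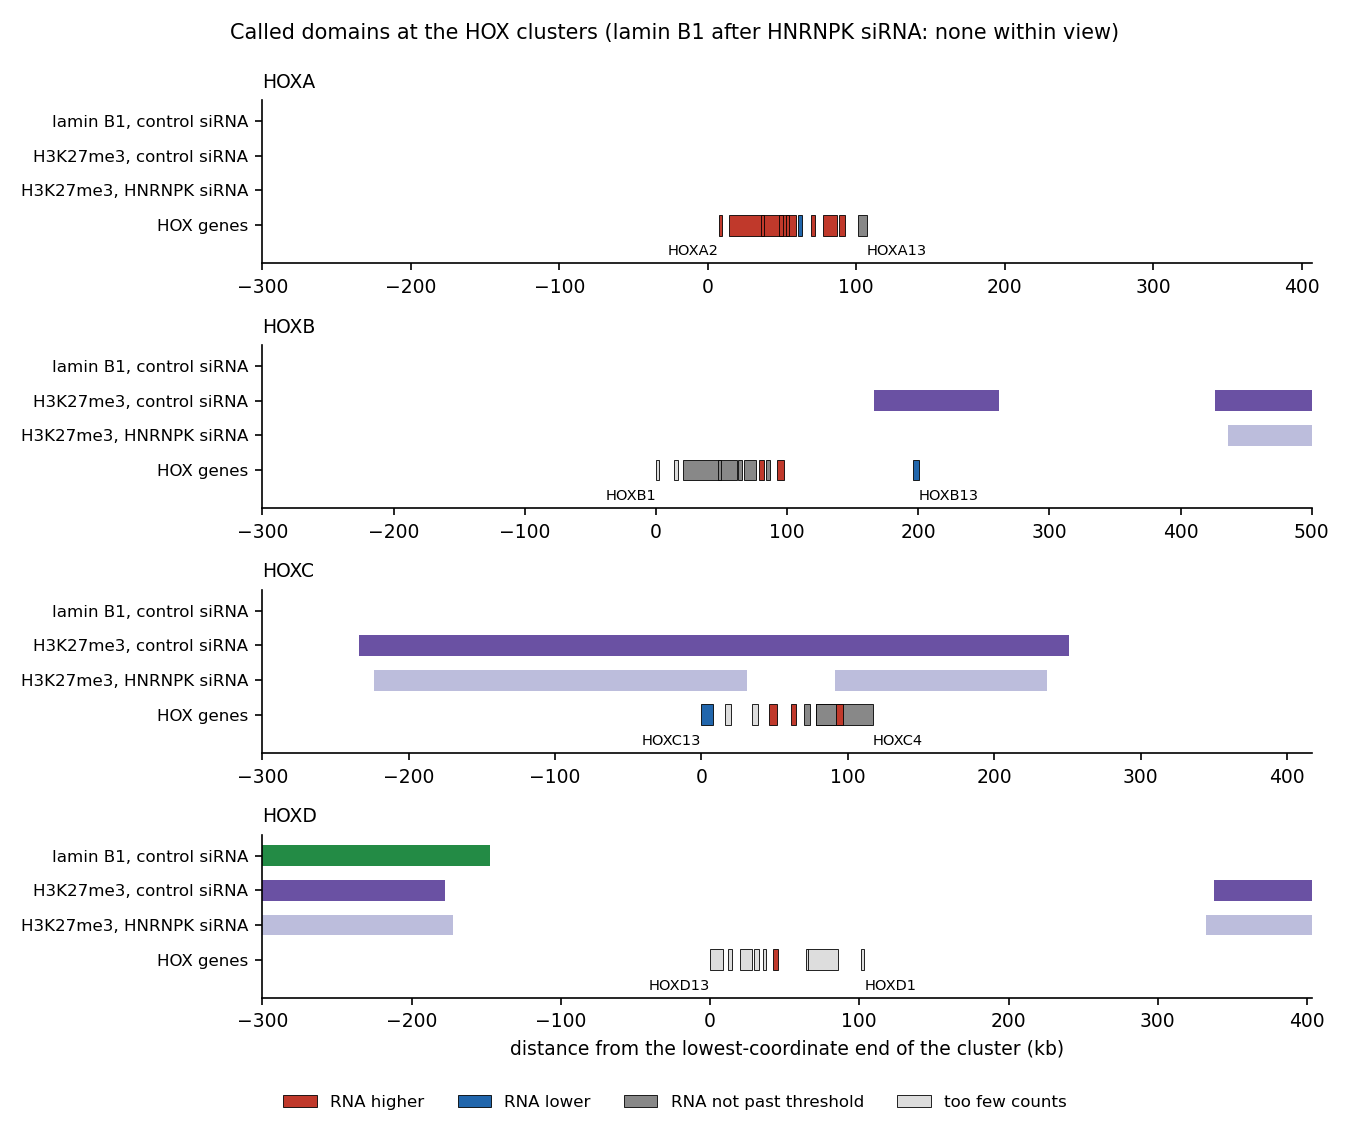
Called domains of lamin B1 (green) and H3K27me3 (dark purple for control siRNA, light purple for HNRNPK siRNA) around each HOX cluster, with distance in kb from the lowest-coordinate end of the cluster on the x axis; boxes are HOX gene bodies, coloured by RNA change. The control H3K27me3 domain spans all of HOXC and is split after HNRNPK siRNA, the domain at HOXB13 is absent after HNRNPK siRNA, and HOXA has no domain in view.

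Set beside the RNA, 3 of the 6 tested HOX genes that were in the control H3K27me3 list alone rose and 1 fell, where 34.2% and 36.5% of 219 tested genes of that state did. Of the 2 tested HOX genes in both lists 1 fell and none rose (43.3% and 22.0% of 1108 genes). Of the 19 tested HOX genes in neither list 12 rose and 1 fell (34.9% and 37.5% of 12128 genes). Of the 15 HOX genes that rose, 12 were without an H3K27me3 domain in either list (80%), beside 88.3% of all 4788 genes with a position that rose.

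Of 16 noncoding genes listed for the clusters, 8 were tested, 3 rose and none fell, beside 35.5% higher and 36.1% lower of all tested genes. HOTAIR, a long noncoding RNA whose annotated body overlaps HOXC11, had 4 to 23 counts per library. With the strand setting not given, reads of HOTAIR and HOXC11 may have been counted for each other. HOTAIR was at 0.237, 0.334, 0.600 and 0.766 CPM with siNTC5 and at 1.52, 0.966, 1.94 and 1.40 CPM with HNRNPK siRNA. All knockdown libraries were above the controls (log2 fold change 1.60 ± 0.33, edgeR adjusted p = 0.000230). HOTAIRM1, a long noncoding RNA at the 3′ side of HOXA, rose by 0.68 ± 0.17 on the log2 scale (adjusted p = 0.00123). HOXB-AS3, whose body overlaps HOXB5 and HOXB6, rose by 0.34 ± 0.09 with groups that overlapped. HOTTIP, at the 5′ end of HOXA, had too few counts.

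Protein-coding genes within 500 kb of the clusters did not follow them in 1 direction. Beside HOXA, SKAP2 rose by 1.02 ± 0.06 (46.5 ± 2.48 to 94.5 ± 8.01 CPM, edgeR adjusted p = 1.28e-11), HIBADH fell by 0.79 on the log2 scale, and EVX1, the homeobox gene next to HOXA13, had too few counts. Of 11 tested genes beside HOXB, 2 rose and 3 fell: TTLL6, the nearest on the HOXB13 side, rose by 0.64 ± 0.21, IGF2BP1 rose by 1.19 ± 0.25 and PHOSPHO1 fell by 1.39 on the log2 scale, while SKAP1 on the other side was at 0.07 ± 0.08. Of 18 beside HOXC, 8 rose and 9 fell. The neighbours SMUG1 and CALCOCO1 fell by 0.76 and by 0.52 on the log2 scale, and NFE2 and NCKAP1L, genes best known from blood cells, and PDE1B rose by 1.43, 2.01 and 2.52. Counts per library were low, at 12 to 42 for NFE2, 14 to 76 for NCKAP1L and 2 to 20 for PDE1B. The same holds beside HOXB for IGF2BP1 (13 to 42) and PHOSPHO1 (9 to 57). Beside HOXD, MTX2 rose by 0.19 ± 0.06, LNPK fell by 0.77 on the log2 scale, and EVX2 had no counts.

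Genes whose proteins act with or on HOX genes were listed as well, and their counts are read against the 35.5% of all tested genes that rose and the 36.1% that fell. Of 9 HOX cofactors, the PBX, MEIS and PKNOX homeodomain proteins that bind DNA together with HOX proteins, 7 were tested. PBX3, PBX4, MEIS2 and MEIS3 fell, and PKNOX1 rose, none by a log2 fold change of 1. All 11 Trithorax-type genes were tested, 5 rose and 5 fell. ASH2L, a core subunit of the H3K4 methyltransferase complexes, was at 69.2, 62.7, 63.9 and 59.0 CPM with siNTC5 and at 22.4, 19.1, 16.2 and 16.9 CPM with HNRNPK siRNA. That was the largest change of the list (log2 fold change -1.77 ± 0.08, edgeR adjusted p = 4.69e-13).

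Among 29 Polycomb genes 27 were tested, 8 rose and 11 fell, near the 71.5% of all tested genes that changed. CBX7, a chromodomain subunit of Polycomb repressive complex 1 that binds H3K27me3, fell from 19.6 ± 0.790 to 9.78 ± 1.07 CPM (log2 fold change -1.0 ± 0.10, edgeR adjusted p = 2.40e-08). Core subunits of Polycomb repressive complex 2, named after their values were seen, did not all behave alike. EZH2 was at 0.02 ± 0.06, EED at 0.001 ± 0.07 and SUZ12 at -0.006 ± 0.05 on the log2 scale, none past the test. RBBP4 was at 0.30 ± 0.04 and RBBP7 at -0.32 ± 0.04, both past the test (edgeR adjusted p = 2.65e-06 and 1.17e-06). Of 12 upstream inputs, 8 were tested, 3 rose and 4 fell. Retinoic acid receptors and retinoid X receptors together activate 3′ HOX genes in the embryo. The retinoic acid receptor gene RARG fell by 1.07 on the log2 scale, from 79.3 ± 4.53 to 37.6 ± 2.98 CPM. The retinoid X receptor gene RXRA fell by 1.33, from 62.8 ± 9.98 to 24.9 ± 4.39 CPM. RARA, also a retinoic acid receptor gene, rose from 45.9 ± 6.92 to 58.4 ± 9.97 CPM, with overlapping groups. Its log2 fold change was 0.35 ± 0.06 (edgeR adjusted p = 6.76e-05). RXRB rose by 1.01 ± 0.27 from a low level (0.854 ± 0.282 to 1.70 ± 0.217 CPM), and its reads may be divided with alternate assembly copies of its region. CDX2, an intestinal homeobox gene upstream of HOX genes and also named after its value was seen, was at 12.1 and 12 CPM (log2 fold change -0.002 ± 0.11).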

How the data were processed

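RNA of HCT116 cells was measured in 10 libraries of a series of 45 samples. The authors deposited gene counts (whole numbers, not normalised), aligned with STAR 2.7.1a and counted with featureCounts (Subread 2.0.6) on hg38, per the submitters' processing notes. The notes on the Scramble tables name STAR, featureCounts and DESeq2 with hg19 and hg38. The strand setting is not given in the sources used here. The deposited domain lists give a score for each domain; the notes name bcl2fastq 2.20, fastp 0.23.2, Bowtie2 2.5.1 and deepTools 3.1.3, and the caller and the score's unit are not given in the sources used here. Edges fall on steps of 5 kb. No edge can be placed more finely than that step.

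After filterByExpr and TMM scaling, counts were tested in edgeR 4.0.16 (R 4.3.3, limma 3.58.1) with its quasi-likelihood test, with kit and treatment as terms, with Benjamini-Hochberg adjustment over 13933 genes and a threshold of 0.05. The standard error is the log2 fold change divided by the root of the F statistic. Groups followed the labels. Gene positions came from RefSeq for 26987 names. The steps were tested on simulated data.

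The members and lists were chosen with earlier results of these data known. Named by rule were HNRNPK, every HOX gene (with values in every library where it passed and the groups did not overlap), genes of the related and flanking lists past the threshold whose log2 fold change was 1 or more in size and whose groups did not overlap, and the nearest protein-coding neighbours. Other names, including HOXA9, HOXA13 and HOXB13 with all their values, were added after their values were seen. Results of 1 HOX gene and 1 cofactor gene enter the counts and are not reported here.

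Deviations from group means were correlated over genes between libraries that share a replicate number, on log2 CPM with 0.5 added. The values of r were 0.130, 0.488, 0.400 and 0.321 for replicates 1 to 4. For siNTC5 replicate 4, an HNRNPK siRNA library of another number gave a higher r (0.337). After removal of the kit mean r was 0.0668 in TruSeq and 0.0126 in Ligation libraries. The main fit held kit as a term and did not pair libraries by number. Alternatives were DESeq2 1.42.0 (size factors, Wald test), upper-quartile normalisation, other filters, no kit term, a replicate block, each kit alone, added Scramble libraries, each library left out, a minimum fold change and, chosen after seeing the data, robust dispersion; for domains, other overlap rules, score and length limits and widened clusters.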

Additional observations from a re-analysis of the deposited data

Results flagged for a closer look

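In 56 groups of 4 libraries (28 genes, HNRNPK included, in each group) the highest or lowest library was compared with the rest, and 2 stood apart; chance gives about 1 in 20. The gap to the nearest library over the whole range of the group was 0.883 for HOXA3 in HNRNPK siRNA replicate 3, which read 11.6 CPM beside 13.3 to 13.5 in the others, and 0.923 for HOXA13 in siNTC5 replicate 1, which read 12.2 CPM beside 9.90 to 10.1. Both exceed Dixon's critical value at 95% for 4 values. HOXA3 passed the test in every alternative run (log2 fold change 2.12 to 2.48). Without siNTC5 replicate 1, HOXA13 was at a log2 fold change of -0.16 (edgeR adjusted p = 0.232) in place of -0.26.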

How the results depend on the processing

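For the 18 HOX genes that passed the test, 338 alternative values were computed: 309 kept direction and call, 29 missed the threshold and none reversed, and 11 of the 18 kept the call in every alternative run. The other 9 tested genes gave 169 values, of which 4 passed the threshold and 13 reversed. Those reversals, as log2 fold changes, were HOXA13 at 0.00883, HOXB3 at 0.15 and HOXB6 at 0.21 with Scramble libraries added, HOXB4 at 0.000813 with upper-quartile normalisation, HOXB4 at 0.17 and HOXC6 at -0.16 in TruSeq libraries alone, and HOXB8 at -0.0466 and HOXC8 at -0.0312 in Ligation libraries alone. With each library left out in turn, HOXB4 ran from -0.112 to 0.0925 (above 0 without siNTC5 replicate 4 or HNRNPK siRNA replicate 3), HOXB5 from -0.00699 to 0.163 (below 0 without HNRNPK siRNA replicate 3) and HOXC6 from -0.0129 to 0.219 (below 0 without siNTC5 replicate 4 or HNRNPK siRNA replicate 2). The cause of these reversals was not tested. With a minimum absolute log2 fold change of 1, 2195 of all genes and 7 HOX genes passed, 5 of them higher. Adding Scramble libraries left 9 HOX genes higher; the cause was not tested. Leaving out each library gave 9612 to 9997 genes, 16 to 18 HOX genes, 13 to 15 higher and 3 to 4 lower, and -2.25 to -2.13 for HNRNPK. With the replicate block in place of kit, 9872 genes and 17 HOX genes passed (14 higher, 3 lower), and HOXC5 was the 1 HOX call that changed. Among domains with a score at or above their list's median, no HOX gene lay in an H3K27me3 domain in either condition (0 and 0), and HOXB and HOXC were covered at 0% in control and HOXC at 0% after HNRNPK siRNA, since the domains there score below the median. Domains of at least 100 kb left 0% of HOXB covered in control, since the domain there is shorter. Any overlap counted 5 HOX genes in H3K27me3 domains after HNRNPK siRNA, and widening HOXC by 50 kb on each side gave 72.4%. Placing genes by their transcription start was left out, because a start with strand was at hand for 19 of 39 genes only. With 0 to 24 counts per library, changes in 12 HOX genes could not be tested.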
